A study of Homo sapiens with 6 samples.

Results

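Interferon-stimulated effector genes encode the proteins that act downstream of interferon signalling, and 50 of them were followed by symbol in HCT116 cells, an established human colorectal carcinoma line. Of the 50 symbols, 49 were found in the table of 35106 genes, and 44 of these had enough counts to be tested among the 13548 genes that passed the filter on low counts. The members were selected on the fold changes of shikonin over control in these libraries, in that earlier results of the contrast were known when they were listed, and then kept by the filter on counts. Counts, medians and p-values of its members therefore describe these libraries and are no test of the list. RNF213 was not found under its symbol. The row with its gene identifier carried a clone name, and it is described by itself outside these counts.

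The series holds 6 messenger RNA libraries of wild-type HCT116 cells, of which 3 were labelled shikonin and 3 control. Shikonin is a naphthoquinone pigment from gromwell roots. The labels give the shikonin treatment group 8 μM for 24 h and the control group no treatment, although the treatment text is repeated under the control samples and the paper names a lower dose. Both groups were grown in DMEM with fetal bovine serum. Separate cultures are stated for the libraries neither by the labels nor by the paper, and the p-values therefore reflect a spread between libraries that may be technical. The libraries are bulk, so a lower level in every cell and a loss of the transcript in some cells cannot be told apart.

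Interferons are secreted proteins that bind receptors on the cell surface and activate kinases. Type I and III interferons activate JAK1 and TYK2 and then act through a complex of transcription factors. This complex binds the interferon-stimulated response element (ISRE) in promoters and turns on a set of genes whose products bind foreign RNA, tag proteins with ISG15 or ADP-ribose, build nuclear bodies or block viral entry. Many of these genes are also transcribed at a basal level in carcinoma lines without added interferon.

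Promoter sequences were examined first. The sequences do not depend on the libraries, but the choice of genes does. The 44 genes were listed as interferon-stimulated with earlier results known, and were then kept by the filter on counts. Their share of matches is therefore a description and no test of the list. An ISRE-like match was defined as GAAA, any 2 bases and GAAA on either strand, in windows of 300 bases around annotated starts (250 before and 50 after, RefSeq, GRCh38.p14). Of the 44 tested genes, 35 had a promoter in the table, and 26 of them (74.3%) held at least 1 match. Among all 10429 tested genes with a promoter the share was 3.69%, and among all 27305 genes of the table it was 4.38%. The same letters fit sites of interferon regulatory factors, and neighbouring matches can share a GAAA. A match is a stretch of letters and not a measured binding site. The following 7 stretches come from genes that were lower in the shikonin treatment group, with the matches in capitals and the strand of the gene printed.

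IFIT1 (chr10:89392482-89392554, + strand): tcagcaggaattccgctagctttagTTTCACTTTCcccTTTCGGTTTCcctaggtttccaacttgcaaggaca
ISG15 (chr1:1013359-1013424, + strand): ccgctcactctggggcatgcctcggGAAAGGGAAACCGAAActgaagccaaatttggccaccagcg
IFI6 (chr1:27672251-27672332, − strand): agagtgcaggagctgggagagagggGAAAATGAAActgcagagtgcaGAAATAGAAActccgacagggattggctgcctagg
SAMD9 (chr7:93118081-93118140, − strand): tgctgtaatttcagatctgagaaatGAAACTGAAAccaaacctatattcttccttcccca
IFITM3 (chr11:320861-320937, − strand): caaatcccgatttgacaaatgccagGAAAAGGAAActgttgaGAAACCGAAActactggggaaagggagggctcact
HERC5 (chr4:88456969-88457034, + strand): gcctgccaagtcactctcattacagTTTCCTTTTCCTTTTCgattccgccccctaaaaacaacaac
TRIM14 (chr9:98119223-98119273, − strand): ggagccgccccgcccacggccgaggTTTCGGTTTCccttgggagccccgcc

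The other 3 stretches come from genes that did not pass the test and are shown because they hold the same kind of match.

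DDX60L (chr4:168480538-168480597, − strand): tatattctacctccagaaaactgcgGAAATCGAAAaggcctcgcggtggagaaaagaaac
ISG20 (chr15:88638922-88638981, + strand): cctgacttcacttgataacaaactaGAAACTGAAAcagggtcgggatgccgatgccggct
MX1 (chr21:41431829-41431888, + strand): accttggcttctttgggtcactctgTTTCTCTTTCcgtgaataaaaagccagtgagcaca

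The ISG15 stretch has its matches between bases 113 and 98 before the start, and the IFIT1 stretch between bases 116 and 94 before it. In HERC5 and ISG15 the 2 matches overlap, whereas in IFI6, IFITM3 and IFIT1 they are separate. Over the 26 genes there were 49 match positions counted from an annotated start, of which 45 lay before the start and 39 within 150 bases before it. A match near more than 1 annotated start was counted from each, as in IFI27, IFI44 and PLSCR1, so the distinct matches are fewer. PARP9 and DTX3L, whose first exons overlap on opposite strands, may also share a match that was counted for each gene. Of the 25 lower genes with a promoter, 19 (76.0%) held a match, and of the 10 genes that did not pass the test, 7 (70.0%) did. The median log2 fold change of shikonin over control was -0.65 in the 26 genes with a match and -0.56 in the 9 without. Outside the list, 359 tested genes held a match and 48 of them (13.4%) were lower, against 1122 of 10034 genes without one (11.2%). A second motif, TTCNNNGAA, the core of the gamma-activated site, was found on either strand in 11 of the 35 promoters (31.4%), against 8.47% of the 10429.

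**Figure D1:**
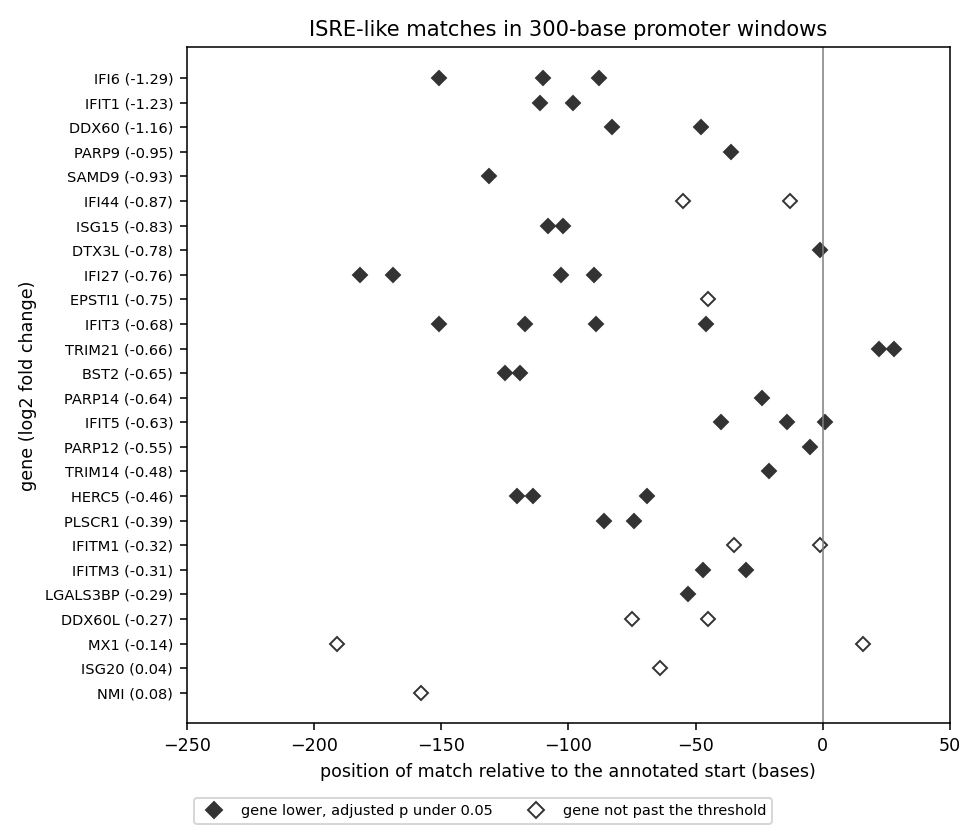
ISRE-like matches in the promoter windows of 26 tested genes. The horizontal axis gives the distance of each match from an annotated start in bases, negative before it, and each gene carries its log2 fold change of shikonin over control. Filled symbols are lower genes and open symbols are genes that did not pass. Of 49 positions, 39 sit within 150 bases before the start, in filled and open genes alike.

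Levels are given in CPM, each count relative to its library total on one scale after adjustment by the trimmed mean of M values, in the order of replicates 1, 2 and 3, and groups were compared by edgeR's quasi-likelihood test with Benjamini-Hochberg adjustment over all 13548 genes. A log2 fold change is shikonin over control and is followed by ± its standard error. Library totals lay between 18845690 and 21765806 estimated counts in the shikonin treatment group and between 18874211 and 19781383 in the control group. Mitochondrially encoded genes took 4.55% to 6.99% of the counts with shikonin and 4.27% to 5.16% in control. The colon epithelial genes EPCAM, KRT8, KRT18, KRT19, CDH1 and CDX2 were expressed, whereas VIL1 was at 0 in all 6 libraries and CDH17 and LGALS4 were nearly absent, with 0 to 5 and 0 to 2 counts per library. These 3 genes were not tested. The summed level of the 9 epithelial markers was 3572 to 4192 CPM with shikonin and 3578 to 3864 CPM in control. The 9 blood and immune markers summed to 19.4 to 22.3 CPM with shikonin and 12.3 to 15.4 CPM in control, and CD68 carried most of it, whereas CD3E and MS4A1 were at 0 in all libraries. CD68 was higher with shikonin (log2 fold change 0.63 ± 0.13, adjusted p = 0.00293). CD14, the other tested marker of this list, did not pass, and PTPRC had 0 to 3 counts per library. The part of these markers in the results was not tested. The 8 stromal and vessel markers summed to 32.2 to 40.2 CPM with shikonin and 37.5 to 40.7 CPM in control, with DCN and LUM at 0. COL1A1 carried most of this sum, with 26.5 to 35.1 CPM with shikonin and 30.9 to 34.5 CPM in control.

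One control library differed from the others in these genes. Control replicate 1 was the highest control library for 34 of the 44 genes (77.3%), compared with 33.6% of all tested genes, and control replicate 3 was the lowest for 27 (61.4%, compared with 36.5%). The 44 genes summed to 3954, 3972 and 3462 CPM in the shikonin libraries, against 5521, 5031 and 4767 CPM in the control libraries. Genes at a high level weigh most in this sum, and LGALS3BP alone had a mean of 1165 CPM with shikonin and 1423 CPM in control. The median log2 ratio of the 44 genes to the control mean was -0.65, -0.62 and -0.53 in the shikonin libraries, against 0.11, -0.03 and -0.09 in the control libraries. The groups did not overlap in either measure, and the control libraries spread more widely in the sum.

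Most of the tested effector genes were lower in the shikonin treatment group. Among the 44, 30 were lower at an adjusted p under 0.05, 14 were not called and 0 were higher. Across all tested genes 11.1% were lower and 10.8% were higher. DESeq2 and limma-voom also called 0 higher at an adjusted p under 0.05. At an unadjusted p under 0.05, 34 were lower and 0 higher with edgeR, where 18.0% of all tested genes were lower and 16.6% higher. At that threshold DESeq2 gave 33 lower and 0 higher, and limma-voom 34 and 0. The median log2 fold change was -0.60 (range -1.42 to 0.08), against -0.02 over all tested genes. In 34 genes all 3 shikonin libraries lay below all 3 control libraries, which held for 20.3% of all tested genes, and in 0 genes all lay above, compared with 18.1%. These 34 were the 30 lower genes plus UBA7, SAMD9L, IFI44 and EPSTI1. Tested against a fold of 1.5, IFI6, IFIT1, SP110, DDX60 and HELZ2 were lower (5 of 44, and 0.177% of all tested genes). Without control replicate 1 the lower genes numbered 23. BST2, IFI27, IFIT3, IFITM3, LGALS3BP, PLSCR1 and USP18 no longer passed, and the median was -0.48. If libraries were scaled by their totals alone, 31 of the 44 were lower, and the split over all tested genes was 2150 lower and 1033 higher, against 1504 and 1460 with the scaling used here.

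**Figure D2:**
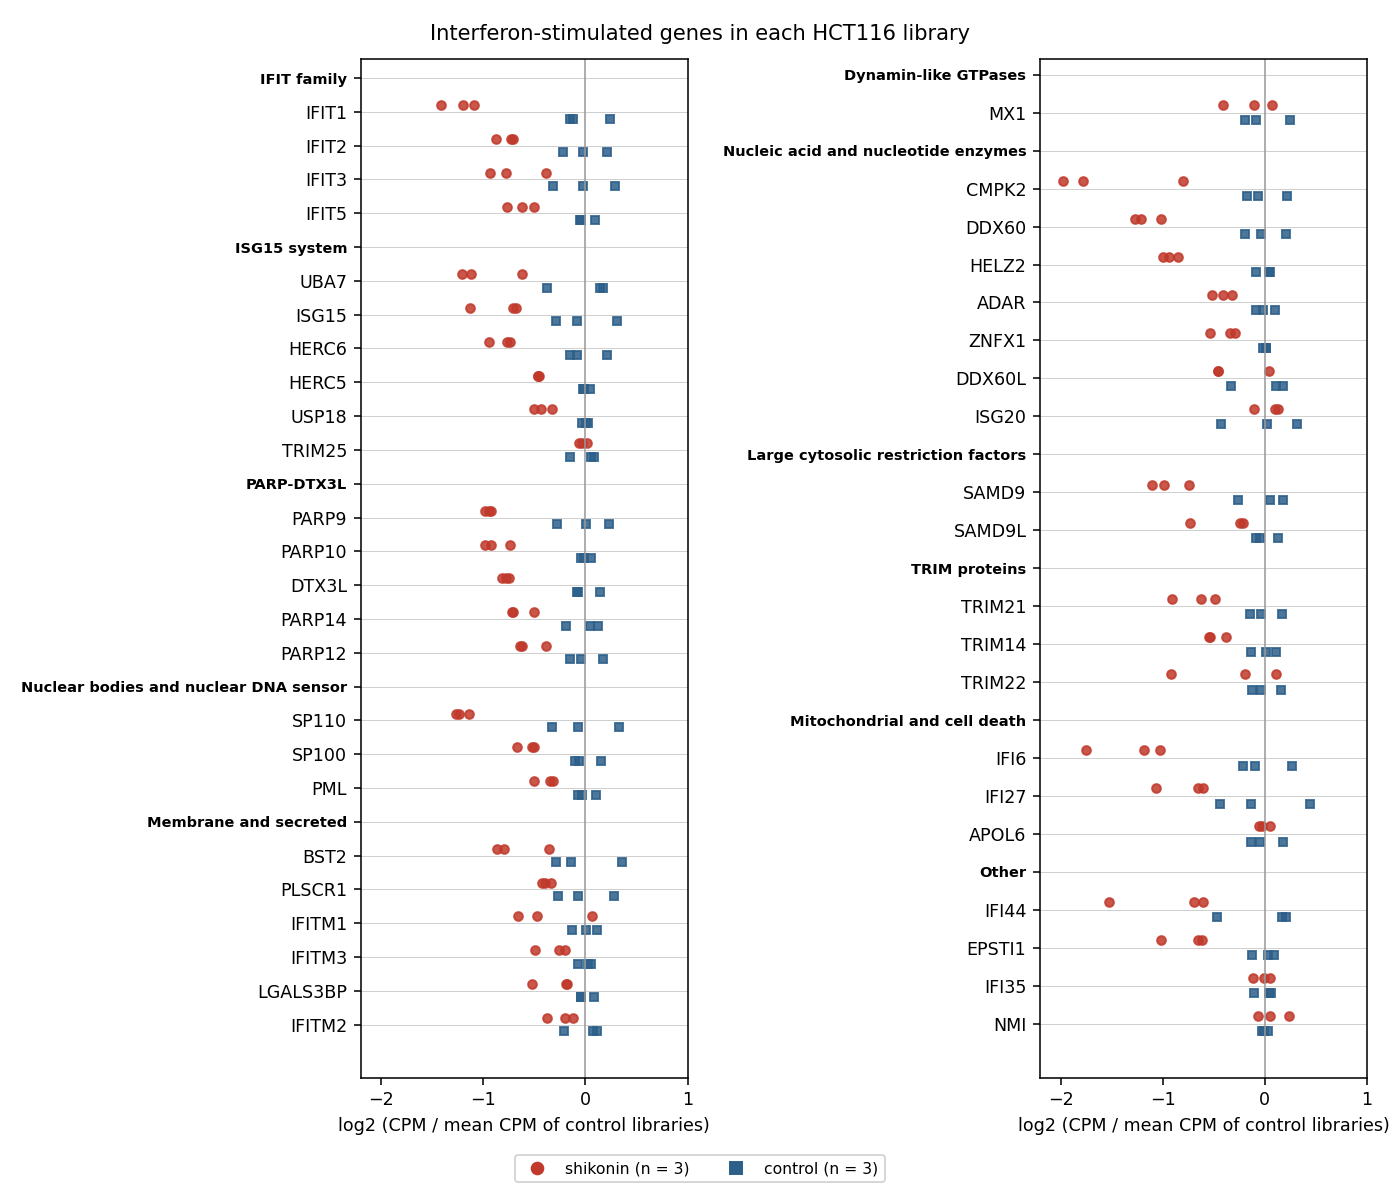
Level of each of the 44 tested genes in every library, by function. The horizontal axis is log2 of CPM over the mean CPM of the control libraries, circles are the 3 shikonin libraries and squares the 3 control libraries. In 34 genes every circle lies left of every square, and the circles and squares of NMI, ISG20, APOL6, IFI35, TRIM25 and MX1 are mixed.

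The IFIT proteins bind foreign RNA and hinder its translation, and their genes sit side by side on chromosome 10. All 4 were lower, against 11.1% of all tested genes, with a median log2 fold change of -0.72. IFIT1, which recognises caps that lack the host's methylation, had 7.29, 7.86 and 6.26 CPM in the shikonin libraries, against 19.8, 15.3 and 15.04 CPM in the control libraries. The groups were well apart, and IFIT1 fell by 57.3% (log2 fold change -1.23 ± 0.15, adjusted p = 9.56e-05). IFIT2, its partner in a larger complex, had 6.14, 5.55 and 6.21 CPM with shikonin, against 11.8, 8.75 and 9.97 CPM in control (log2 fold change -0.77 ± 0.16, adjusted p = 0.00395). The IFIT2 groups did not overlap, and control replicate 1 was the highest library. IFIT3, which stabilises IFIT1 on RNA, had 4.84, 4.34 and 6.36 CPM with shikonin, against 10.1, 8.14 and 6.65 CPM in control. Shikonin replicate 3 and control replicate 3 of IFIT3 almost met (log2 fold change -0.68 ± 0.20, adjusted p = 0.0255), and without control replicate 1 the adjusted p was 0.143. IFIT5, which binds RNA with a triphosphate end, had the highest level of the family per length of transcript (8.67 CPM per kilobase with shikonin and 13.4 in control). It had 31.7, 35.1 and 38.0 CPM in the shikonin libraries, against 57.5, 52.5 and 52.0 CPM in the control libraries (log2 fold change -0.63 ± 0.09, adjusted p = 0.000277). Exons of IFIT2 and IFIT3 overlap LIPA on the opposite strand, and reads of these genes cannot be told apart without strand information.

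ISG15 is a ubiquitin-like protein that is joined to other proteins by its own set of enzymes. Of the 6 members placed in this system 4 were lower, against 11.1% of all tested genes. Their median log2 fold change was -0.64. ISG15 itself (GRCh38, chr1:1001138-1014540, + strand) had 144, 142 and 105 CPM in the shikonin libraries, against 286, 219 and 189.7 CPM in the control libraries. The groups did not overlap although each spread widely, and ISG15 fell by 43.6% (log2 fold change -0.83 ± 0.14, adjusted p = 0.000787). HERC6, a ligase that carries out ISG15 conjugation in mice, had 15.6, 15.3 and 13.6 CPM with shikonin, against 30.1, 23.6 and 24.6 CPM in control (log2 fold change -0.82 ± 0.12, adjusted p = 0.000371). HERC5, the main human ISG15 ligase, had 16.5, 16.6 and 16.6 CPM with shikonin, against 23.5, 22.5 and 22.6 CPM in control. Its libraries varied little within either group, so that a smaller log2 fold change of -0.46 ± 0.10 (adjusted p = 0.00513) left the groups clearly apart. USP18, the protease that removes ISG15 and holds back the interferon receptor, had 13.0, 14.0 and 12.4 CPM with shikonin, against 17.9, 17.1 and 17.7 CPM in control (log2 fold change -0.42 ± 0.11, adjusted p = 0.0169, and 0.0653 without control replicate 1). Of the 75-base stretches of USP18, 43.7% also occur in USP41 and other copies, so its counts are uncertain.

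The remaining members of the ISG15 system did not pass. UBA7, which activates ISG15, had 0.527, 0.495 and 0.745 CPM with shikonin, against 0.883, 1.26 and 1.29 CPM in control (log2 fold change -0.95 ± 0.42, adjusted p = 0.121). Its libraries did not overlap, but it rested on a mean of 17.2 counts. It passed the filter on low counts mainly through the control libraries. On library totals alone, without the adjustment in the levels above, 1 of 3 shikonin libraries and 3 of 3 control libraries were above 0.512 CPM. TRIM25, a ubiquitin ligase that can also attach ISG15, had 429, 442 and 421 CPM with shikonin, against 466, 457 and 395 CPM in control. The groups overlapped throughout (log2 fold change -0.03 ± 0.08, adjusted p = 0.841). UBE2L6, the conjugating enzyme of this system, is outside the 50 symbols and was added after its values were seen. It had 47.2, 48.9 and 40.0 CPM with shikonin, against 59.1, 49.7 and 48.7 CPM in control. UBE2L6 did not pass either (log2 fold change -0.21 ± 0.10, adjusted p = 0.141), and its groups overlapped.

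PARP9, PARP10, PARP12 and PARP14 belong to the family that attaches ADP-ribose to proteins, and DTX3L is the ubiquitin ligase that pairs with PARP9. All 5 genes were lower, against 11.1% of all tested genes, with a median log2 fold change of -0.78. PARP9 (chr3:122527924-122564577, − strand) had 34.6, 35.5 and 36.0 CPM in the shikonin libraries, against 80.3, 68.4 and 56.1 CPM in the control libraries. Shikonin libraries were nearly equal while control libraries spread, and PARP9 fell by 48.2% (log2 fold change -0.95 ± 0.11, adjusted p = 5.7e-05). DTX3L (chr3:122564338-122575203, + strand) had 78.8, 75.4 and 77.4 CPM with shikonin, against 146, 126 and 125 CPM in control (log2 fold change -0.78 ± 0.08, adjusted p = 1.64e-05). PARP9 and DTX3L run away from each other from first exons that overlap on opposite strands, and reads in the overlap cannot be told apart.

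PARP10, which adds single ADP-ribose units, had 8.82, 8.47 and 10.0 CPM with shikonin, against 17.3, 16.1 and 16.6 CPM in control (log2 fold change -0.87 ± 0.12, adjusted p = 0.000308). The PARP10 groups were well apart with little spread. PARP14, which also adds single units and binds ADP-ribose through macrodomains, had 48.2, 47.9 and 55.7 CPM with shikonin, against 81.1, 85.9 and 69.2 CPM in control (log2 fold change -0.64 ± 0.09, adjusted p = 0.00035). PARP12, a zinc finger member found at the Golgi, had 59.6, 70.2 and 58.6 CPM with shikonin, against 103, 88.9 and 82.4 CPM in control (log2 fold change -0.55 ± 0.09, adjusted p = 0.00124). It had the smallest fold change of the 5 genes, and its groups still did not overlap.

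PML, SP100 and SP110 build nuclear bodies, dot-like structures in the nucleus that take part in repression of viral genomes. All 3 were lower, against 11.1% of all tested genes, with a median log2 fold change of -0.56. SP110 (chr2:230165186-230225729, − strand) had 10.0, 9.79 and 10.7 CPM in the shikonin libraries, against 29.5, 22.4 and 18.8 CPM in the control libraries. The lowest control library of SP110 was well above every shikonin library (log2 fold change -1.21 ± 0.15, adjusted p = 0.000118). SP100, a scaffold part of the bodies, had 47.0, 52.1 and 53.0 CPM with shikonin, against 83.4, 69.8 and 71.7 CPM in control (log2 fold change -0.56 ± 0.09, adjusted p = 0.000531). PML, the protein that organises the bodies, had 58.9, 60.0 and 53.0 CPM with shikonin, against 80.5, 73.2 and 71.1 CPM in control. PML had the smallest fold change of the 3, without overlap of the groups (log2 fold change -0.39 ± 0.08, adjusted p = 0.00376). IFI16, a nuclear DNA sensor grouped with them, had a mean of 6.17 counts and was not tested.

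Among genes of membrane-bound and secreted proteins 4 of 6 were lower, against 11.1% of all tested genes. Their median log2 fold change was -0.32. BST2, also called tetherin, which holds budding viruses at the cell surface, had 3.98, 5.66 and 4.17 CPM in the shikonin libraries, against 9.25, 5.92 and 6.55 CPM in the control libraries. Shikonin replicate 2 and control replicate 2 of BST2 lay next to each other (log2 fold change -0.65 ± 0.21, adjusted p = 0.0398, and 0.223 without control replicate 1). PLSCR1, a phospholipid scramblase, had 56.5, 53.0 and 54.2 CPM with shikonin, against 86.7, 67.9 and 59.4 CPM in control (log2 fold change -0.39 ± 0.11, adjusted p = 0.0221, and 0.145 without control replicate 1). Its shikonin libraries were nearly equal, and the control libraries covered a wide range above them. IFITM3, which hinders fusion of viruses in endosomes, had 394, 379 and 322 CPM with shikonin, against 469, 460.0 and 431 CPM in control (log2 fold change -0.31 ± 0.09, adjusted p = 0.0172, and 0.0876 without control replicate 1). LGALS3BP, a secreted glycoprotein that binds galectins, had 1257, 1250.1 and 987 CPM with shikonin, against 1512, 1379.9 and 1376 CPM in control. It was close to the threshold (log2 fold change -0.29 ± 0.10, adjusted p = 0.0483), passed in 7 of 16 alternative settings and reached 0.205 when control replicate 1 was left out.

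IFITM2 and IFITM1, relatives of IFITM3 that act at endosomes and the cell surface, did not pass. IFITM2 had 77.4, 73.6 and 65.0 CPM with shikonin, against 91.3, 88.7 and 72.8 CPM in control (log2 fold change -0.23, adjusted p = 0.0984). IFITM1 had 9.59, 5.77 and 6.60 CPM with shikonin, against 8.36, 9.91 and 9.18 CPM in control (log2 fold change -0.32, adjusted p = 0.24). Shikonin replicate 1 of IFITM1 lay among the control libraries. The 3 IFITM genes share sequence with each other and with a gene without a symbol that overlaps IFITM1 and IFITM2 on the same strand. Of the 75-base stretches, 52.2% of those of IFITM1, 7.1% of those of IFITM2 and 12.5% of those of IFITM3 were found in another gene. For IFITM1 and IFITM2 the overlapping gene came first among the genes that share them. The split of reads among all these genes is uncertain.

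Among enzymes of nucleic acids and nucleotides, 5 of 7 were lower, against 11.1% of all tested genes. Their median log2 fold change was -0.41. CMPK2, a mitochondrial kinase of pyrimidine nucleotides, had the largest fold change of the 44 genes at a low level, with 0.815, 0.935 and 1.84 CPM in the shikonin libraries, against 3.06, 2.83 and 3.72 CPM in the control libraries. The groups were apart, but the counts per library were few, and the standard error of 0.34 was wide for a log2 fold change of -1.42 (adjusted p = 0.00846). DDX60, a helicase reported to assist RNA sensing, had 12.5, 13.0 and 14.9 CPM with shikonin, against 35.0, 29.3 and 26.3 CPM in control (log2 fold change -1.16 ± 0.12, adjusted p = 3.16e-05). HELZ2, a large helicase and nuclear receptor coactivator (chr20:63558086-63574239, − strand), had 183, 171 and 164 CPM with shikonin, against 339.6, 338 and 308 CPM in control. Its libraries spread little, and it had the smallest adjusted p of the 44 genes (log2 fold change -0.93 ± 0.07, adjusted p = 3.46e-06). ADAR, which edits adenosine to inosine in double-stranded RNA, had 553, 587 and 512 CPM with shikonin, against 787, 723 and 692 CPM in control (log2 fold change -0.41 ± 0.08, adjusted p = 0.00289). ZNFX1, a helicase that binds double-stranded RNA, had 132, 137 and 115 CPM with shikonin, against 168, 168 and 166 CPM in control (log2 fold change -0.39 ± 0.08, adjusted p = 0.00251). Exons of ZNFX1 overlap ZFAS1 and DDX27 on the opposite strand.

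DDX60L, the close relative of DDX60, did not pass the test. It had 21.0, 20.9 and 29.5 CPM with shikonin, against 32.6, 31.0 and 22.8 CPM in control, and the third replicates crossed (log2 fold change -0.27 ± 0.15, adjusted p = 0.208). Whether the difference between DDX60 and DDX60L was larger than their spread was not tested. They share few of their 75-base stretches, 0.2% for DDX60 and 0.1% for DDX60L. ISG20, an exonuclease that degrades single-stranded RNA, had 7.67, 7.53 and 6.50 CPM with shikonin, against 8.73, 7.13 and 5.21 CPM in control (log2 fold change 0.04, adjusted p = 0.898). RSAD2, which encodes viperin and lies beside CMPK2 with overlapping exons on the opposite strand, had a mean of 3.83 counts and was not tested.

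**Figure D3:**
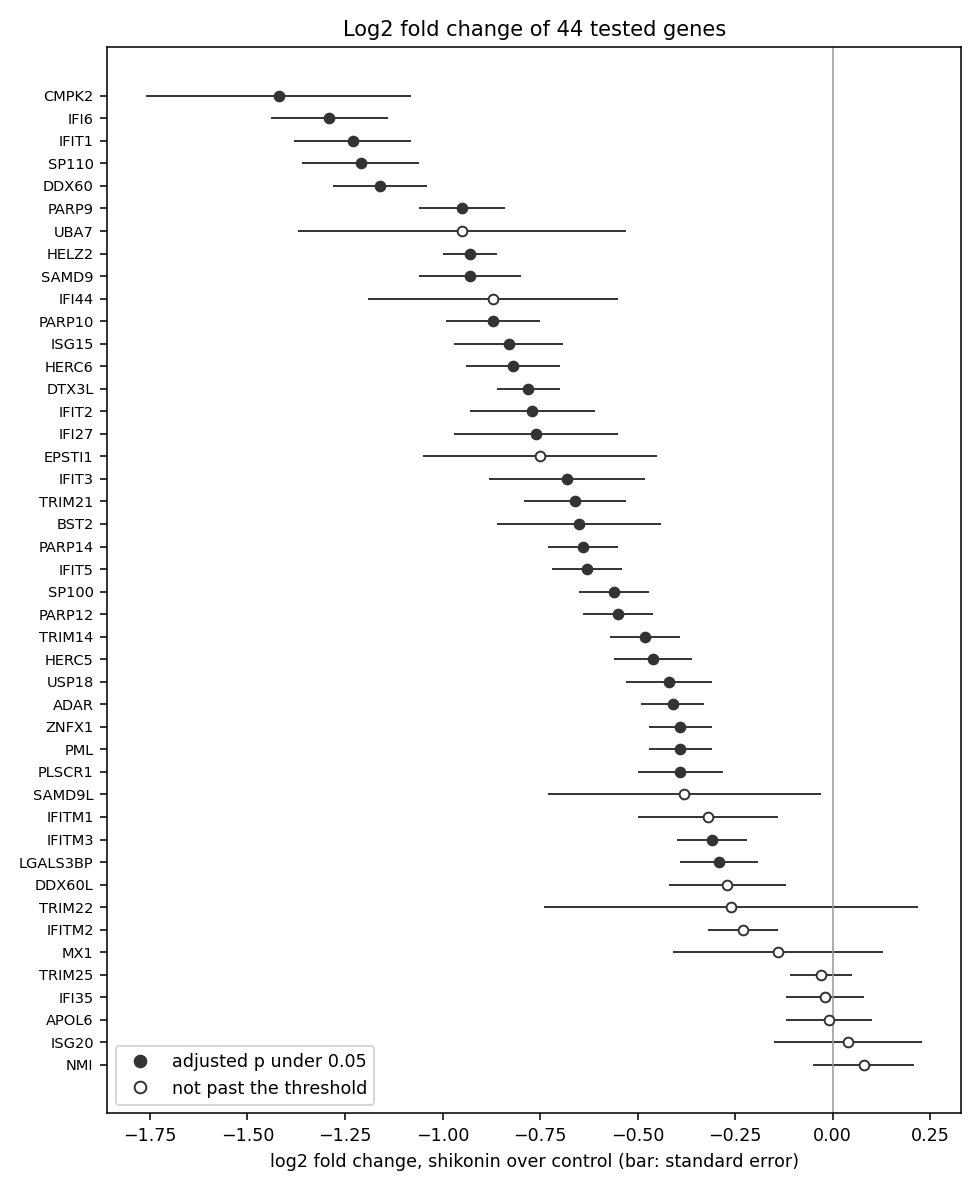
Log2 fold change of shikonin over control for the 44 tested genes, ordered by size, with bars of 1 standard error. Filled points passed an adjusted p under 0.05 in edgeR and open points did not. CMPK2 at -1.42 and NMI at 0.08 mark the ends, and all 30 filled points are left of 0.

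SAMD9 and SAMD9L are neighbouring genes on chromosome 7 whose large cytosolic proteins restrict poxviruses. SAMD9 had 16.1, 14.8 and 19.02 CPM in the shikonin libraries, against 35.9, 32.9 and 26.5 CPM in the control libraries. The groups did not overlap (log2 fold change -0.93 ± 0.13, adjusted p = 0.000229). SAMD9L had 0.863, 1.21 and 1.24 CPM with shikonin, against 1.35, 1.57 and 1.39 CPM in control and did not pass (log2 fold change -0.38 ± 0.35, adjusted p = 0.482). Its standard error was too wide at this depth to set it apart from SAMD9 or from 0. RNF213, a giant ubiquitin ligase found by its identifier, had 229, 240.2 and 218 CPM with shikonin, against 248, 246 and 237 CPM in control (log2 fold change -0.09 ± 0.07, adjusted p = 0.387). Shikonin replicate 2 of RNF213 lay within the control range.

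TRIM proteins are ubiquitin ligases and adaptors of innate immunity. Of the 3 genes placed in this group 2 were lower, against 11.1% of all tested genes. The share depends on this placing, because TRIM25 (log2 fold change -0.03) was counted in the ISG15 system and did not pass. Among TRIM genes outside the effector genes, TRIM38 was lower (-0.39), and TRIM5 (-0.08), TRIM34 (0.14) and TRIM56 (-0.11) did not pass. TRIM5, TRIM34 and TRIM56 were added after their values were seen. TRIM21, a cytosolic antibody receptor, had 14.4, 13.0 and 10.7 CPM with shikonin, against 22.6, 19.6 and 18.3 CPM in control (log2 fold change -0.66 ± 0.13, adjusted p = 0.00315). TRIM14, an adaptor at mitochondria, had 44.01, 49.4 and 44.3 CPM with shikonin, against 69.2, 64.7 and 58.5 CPM in control (log2 fold change -0.48 ± 0.09, adjusted p = 0.00142). Neither gene had overlapping groups. TRIM22 had 0.671, 0.330 and 0.546 CPM with shikonin, against 0.571, 0.607 and 0.695 CPM in control (log2 fold change -0.26 ± 0.48, adjusted p = 0.742). With a mean of 11.3 counts it was the gene nearest to the filter among those tested, and 2 of 3 shikonin libraries and 3 of 3 control libraries were above the limit of 0.512 CPM.

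Of the genes linked to mitochondria and cell death, 2 of 3 were lower, against 11.1% of all tested genes. IFI6, a small membrane protein that hinders flavivirus replication and apoptosis (chr1:27666064-27672212, − strand), had 86.3, 77.2 and 52.2 CPM in the shikonin libraries, against 212, 151 and 164 CPM in the control libraries. Every control library was above every shikonin library, and IFI6 fell by 59.1% (log2 fold change -1.29 ± 0.15, adjusted p = 6.95e-05). A share of 19.2% of its 75-base stretches also belongs to LINC02574, which overlaps it on the same strand. IFI27, its relative, had 7.05, 6.82 and 5.11 CPM with shikonin, against 14.5, 7.89 and 9.73 CPM in control. Control replicate 1 of IFI27 stood far above the other control libraries (log2 fold change -0.76 ± 0.21, adjusted p = 0.0191, and 0.135 without that library). APOL6, an apolipoprotein L that can promote apoptosis, had 20.7, 21.1 and 22.2 CPM with shikonin, against 24.2, 20.7 and 19.5 CPM in control (log2 fold change -0.01, adjusted p = 0.96). XAF1, a partner of the apoptosis inhibitor XIAP, had a mean of 7.17 counts and fell just outside the filter.

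Of the remaining 5 genes, 4 were tested and 0 passed with edgeR, and 2 were lower at an unadjusted p under 0.05, as were 18.0% of all tested genes. DESeq2 also called none of these 4. IFI44, a cytosolic antiviral protein, had 1.87, 1.04 and 1.99 CPM with shikonin, against 3.38, 3.49 and 2.18 CPM in control (log2 fold change -0.87 ± 0.32, adjusted p = 0.0634 with edgeR and 0.0595 with DESeq2). EPSTI1, first described as induced in epithelial cells by stroma, had 1.20, 1.54 and 1.59 CPM with shikonin, against 2.23, 2.58 and 2.48 CPM in control (log2 fold change -0.75 ± 0.30, adjusted p = 0.083). Both had groups that did not overlap at few counts. IFI35 and NMI, which bind each other, stayed within the spread of the libraries. IFI35 had 25.2, 24.1 and 22.4 CPM with shikonin, against 25.3, 25.04 and 22.5 CPM in control (log2 fold change -0.02, adjusted p = 0.902), and NMI had 10.9, 11.8 and 13.4 CPM with shikonin, against 11.2, 11.3 and 11.7 CPM in control (log2 fold change 0.08, adjusted p = 0.712). MX1, a dynamin-like GTPase that traps viral nucleoproteins, was likewise mixed, with 2.01, 2.80 and 2.48 CPM with shikonin, against 2.34, 2.53 and 3.18 CPM in control (log2 fold change -0.14 ± 0.27, adjusted p = 0.748). MX2 and IFI44L had a mean of 3.5 counts each and were not tested.

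Per length of the canonical transcript, the levels covered a wide range. IFITM3 was highest with 598 CPM per kilobase in the shikonin treatment group and 742 in the control group, followed by LGALS3BP with 529 and 646 and by ISG15 with 205 and 363. IFI6 had 88.6 CPM per kilobase with shikonin and 216 in control, and ADAR had 83.3 and 111. SAMD9L, TRIM22 and UBA7 were lowest, at 0.154, 0.179 and 0.178 CPM per kilobase with shikonin and 0.201, 0.216 and 0.347 in control. Lower genes were found at high and at low levels, with IFITM3 at the top and CMPK2 toward the bottom (0.386 CPM per kilobase with shikonin and 1.04 in control).

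**Figure D4:**
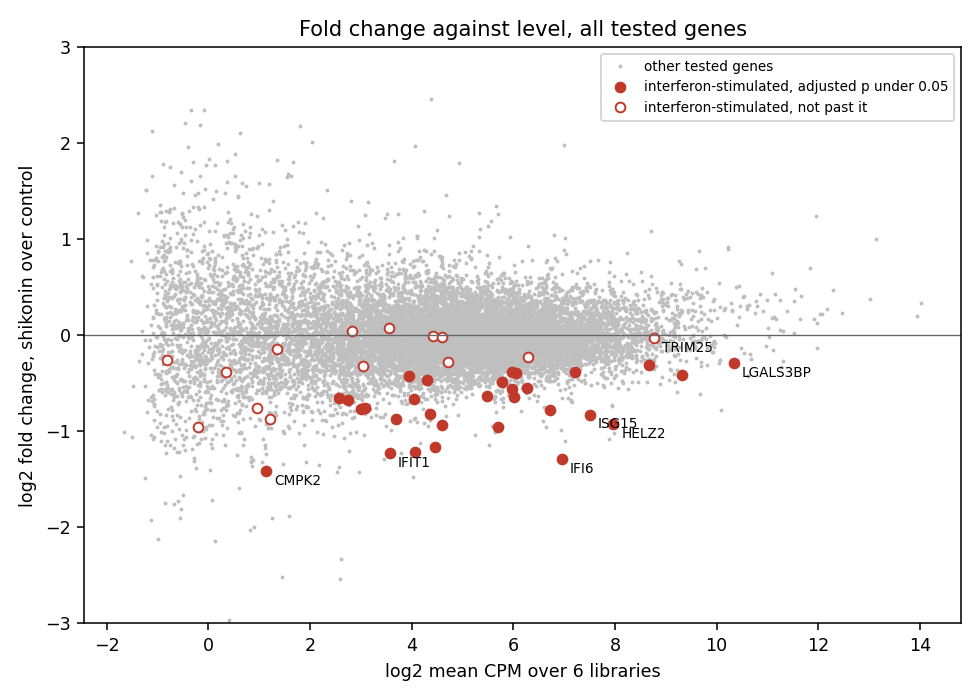
Log2 fold change of shikonin over control against the log2 mean CPM over 6 libraries. Small grey points are the other tested genes, filled circles are the 30 lower interferon-stimulated genes and open circles the 14 that did not pass, and 9 genes lie beyond the axis limit of 3 in either direction. The filled circles lie on the lower side of the grey cloud at low and high levels, with LGALS3BP at the highest level.

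Fold changes also moved with transcript length across all genes. When all genes were divided into 5 equal bins by transcript length, their median on the log2 scale was 0.14 in the shortest bin and -0.13 in the longest. For the effector genes the medians in the same bins, short to long, were -0.32, -0.42, -0.77, -0.56 and -0.53 (11, 5, 11, 5 and 12 genes). Their median length was 3205 bases, close to 3265 bases over all genes. When length and GC content of the transcripts were fitted as an offset, 32 of the 44 genes were lower and the median was -0.54.

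The genes upstream of the effectors were counted from lists put together by hand. Across all tested genes 11.1% were lower and 10.8% were higher, and no list was tested against these shares. Of 9 interferon genes, IFNE alone reached the filter, with 6, 3 and 9 counts in the shikonin libraries, against 18, 16 and 30 counts in the control libraries. It did so through the control libraries only (0 of 3 shikonin libraries and 3 of 3 control libraries were above 0.512 CPM), so it had to differ and no test of it is given. The other interferon genes had 0 to 3 counts in any library. Of 9 receptor and kinase genes 3 were lower, namely IFNAR1 at -0.36 and IFNAR2 at -0.45, the chains of the type I receptor, and the kinase JAK2 at -0.59. Among the transcription factor genes IRF7 at -1.15, STAT2 at -0.55, STAT3 at -0.37 and IRF9 at -0.38 were lower, and IRF3 had 0.22 with an adjusted p of 0.051. Of 6 inhibitors of the pathway only the phosphatase gene PTPN6 was lower, at -0.38. Of 14 sensors of nucleic acids 11 were tested and 5 were lower, among them OAS3 at -1.10 and DDX58, which encodes RIG-I, at -1.04. The sensor count includes a lower gene found by its identifier only, whereas RNF213 was left out of the effector counts.

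A second list held interferon-stimulated genes outside the 50 symbols. Of 23 listed, 21 were tested, 5 were lower, 2 were higher and 14 did not pass, with a median log2 fold change of -0.11. Over all tested genes 11.1% were lower and 10.8% were higher, and the median was -0.02. SAMHD1, which depletes nucleotides, stood at -0.75 ± 0.08 on the log2 scale (adjusted p = 2.1e-05), the tudor domain gene TDRD7 of -0.59 and the zinc finger antiviral gene ZC3HAV1 of -0.40. The higher genes were TYMP, a thymidine phosphorylase, at 0.35 (adjusted p = 0.00913) and the cytidine deaminase gene APOBEC3G at 1.08 (adjusted p = 0.0302). LAP3 and TRIM38 were the remaining lower genes, at -0.24 and -0.39. TYMP, APOBEC3G and LAP3 were not among the 4 genes of this list with the smallest p and were chosen after their values were seen. The 50 symbols had been gathered with earlier results known, and no test compared them with this second list.

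**Figure D5:**
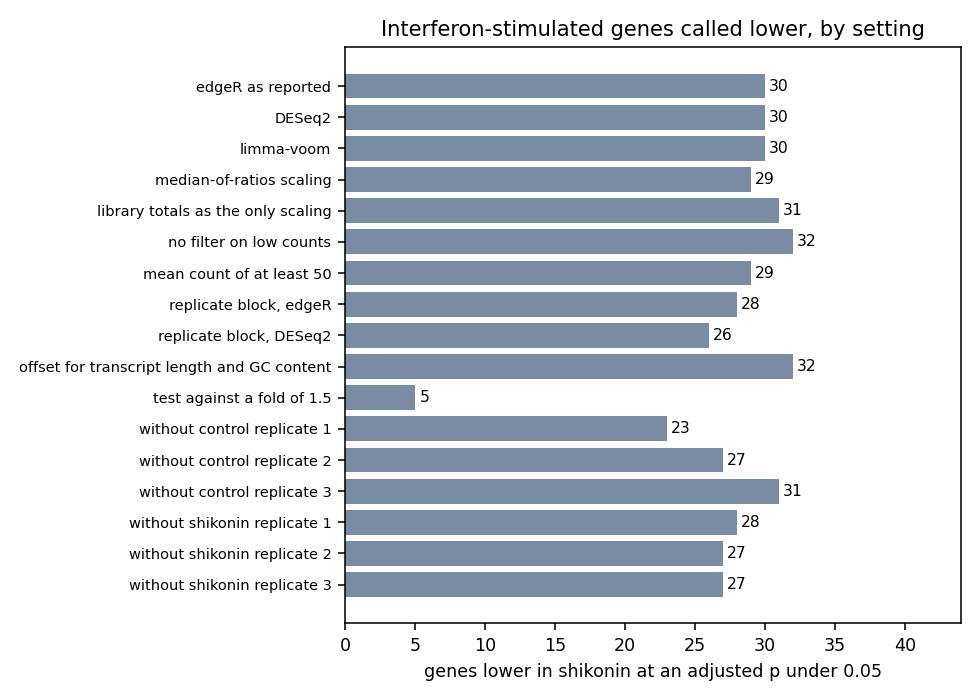
Number of the interferon-stimulated genes lower in the shikonin treatment group under each setting of the analysis. Bars start at 0 and give genes at an adjusted p under 0.05. The other settings gave 23 to 32 genes, and the test against a fold of 1.5 gave 5.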

How the data were processed

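RNA of 6 HCT116 libraries (3 shikonin, 3 control) was analysed. The deposited table held estimated counts for each gene without scaling between libraries. Per library, 46.5% to 63.3% of the nonzero values were fractions of a count, and all were rounded. The paper names hg38, TopHat2 and featureCounts, whereas GRCm38 and mm10, builds of the mouse genome, stand in the submitters' processing notes. The identifiers are human, and 34979 of 35106 were matched to GENCODE release 44. The annotation release and strand setting of the counting are not given in the sources used here.

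Genes were kept by filterByExpr (minimum count 10, more than 0.512 CPM in at least 3 libraries, on library totals before TMM scaling). They were compared in R 4.3.3 with edgeR 4.0.16 (TMM scaling, glmQLFit, glmQLFTest, Benjamini-Hochberg over 13548 genes, adjusted p under 0.05). The design had assumed whole counts. The standard error is the absolute log2 fold change over the square root of F. The procedure was tested on simulated data. DESeq2 1.42.0, limma 3.58.1 (voom), other scalings, filters, a replicate block, an offset fitted to GC content and transcript length (spline with 5 degrees of freedom), a fold limit of 1.5 and omission of each library were the alternatives. Members, lists and tests were chosen with earlier results of these data known. Values per library are given for the members with the largest fold changes among those called in each function group (up to 3), those nearest the filter, and further members named by choice. Of each pathway list up to 4 genes with the smallest p were eligible, and further ones were added after their values were seen. Marker lists were described by summed levels. Promoters and their matches came from RefSeq (GRCh38.p14). One gene of the lists is not reported here.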

Additional observations from a re-analysis of the deposited data

How the results depend on the processing

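Of the 44 tested genes, 30 were lower with DESeq2 and limma-voom, 29 with median-of-ratios scaling (without LGALS3BP), 31 with library totals (with IFITM2), 32 without a filter (49 tested, with IFI44 and IFITM2), 29 of 38 with a mean count of at least 50 (CMPK2 left out) and 32 with the offset for length and GC content. Against a fold of 1.5, 5 were lower, as were 24 of all tested genes, and 38 were higher. Leaving out 1 library gave 23 to 31 lower genes and medians of -0.64 to -0.48, and over all tested genes 778 to 1871 lower and 861 to 2103 higher. The lowest of these counts came without control replicate 1. In no setting was any of the 44 higher (0 in each). No pairing by replicate number was visible. The correlations of the deviations were 0, 0.01 and 0.04 for equal numbers and lay between -0.11 and 0.1 for unequal ones. These values cannot show whether samples of equal number were handled together. A replicate block gave 28 lower genes in edgeR (without BST2 and LGALS3BP) and 26 in DESeq2 (without BST2, CMPK2, IFIT3 and USP18), and over all tested genes 1166 and 776 lower. In that DESeq2 fit CMPK2 had a log2 fold change of -1.48 and was given no adjusted p, so its missing call is not a failed test. LGALS3BP lost its call in 9 of 16 settings, and BST2 and IFIT3 in 6 of 16 each.

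The sign changed only for genes near 0. The log2 fold change of APOL6 was 0.00 with DESeq2 and with median-of-ratios scaling, 0.16 with the offset, 0.01 with the block in DESeq2 and between -0.08 and 0.08 when a library was left out. ISG20 had -0.02 with library totals, -0.08 with the offset and between -0.13 and 0.23 without 1 library. NMI had -0.03 and TRIM25 0.06 with the offset. Without 1 library TRIM25 lay between -0.10 and 0.02 and IFI35 between -0.08 and 0.05. The causes were not tested. Depth limits the genes with few counts, such as UBA7, TRIM22, SAMD9L, MX1, IFI44 and EPSTI1, where a missing call does not show equal levels.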
